A study of Gallus gallus with 2 samples.

Results

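The DNAJ co-chaperones are proteins that carry a J domain, a short helical module with a conserved histidine-proline-aspartate motif that makes HSP70 chaperones hydrolyse ATP and close on a substrate. Their class follows the rest of the protein: class A members also have a glycine- and phenylalanine-rich stretch and a zinc-binding region, class B members lack the zinc-binding region, and class C members share the J domain alone, which delivers HSP70 to one task or place in the cell. In heart muscle they are known for folding of cytosolic and sarcomeric proteins, protein import into mitochondria and folding in the endoplasmic reticulum. The members were all gene names that begin with DNAJ, a class letter A, B or C and a number, and 36 of the 13011 names in the deposited tables met this rule, 4 in class A, 9 in class B and 23 in class C. The RefSeq gene table also holds DNAJB1, DNAJB8, DNAJC5G, DNAJC14, DNAJC22 and DNAJC25, which have no row under these names.

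Hearts of chicken embryos (Gallus gallus) were sequenced as 2 RNA-seq libraries. The control library came from saline embryos, and the AAPH library from embryos exposed to 2,2-azobis(2-amidinopropane) dihydrochloride, which decomposes into free radicals. Per the labels, eggs were kept at 38 °C with a humidity of 70%, and injections into the air chamber of 2.6 µmol AAPH in a volume of 100 µL began at Hamburger-Hamilton (HH) stage 35. They were given every other day until day 10, and surviving embryos gave their hearts at HH stage 37, on day 11. The strain and sex of the embryos and the number of hearts per library are not given in the labels, and only survivors were sampled. Each group has 1 library, so no difference below has a replicate error or a test.

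Levels are in FPKM, a fragment count divided by the length of the transcript and by the size of the library, as the authors deposited it for 27335 assembled transcripts. Because of the length scaling, levels can be compared between genes. Rows with the same gene name were summed, and a difference is given as the log2 ratio, log2((AAPH FPKM + 1)/(control FPKM + 1)). Members past 1.5-fold (a log2 ratio of 0.585 either way) are called higher or lower. The 10106 names with a mean FPKM of 1 or more are called tested names here, and 34 of the 36 members are among them. Markers of heart muscle cells were abundant in both libraries, with 9 of 10 listed markers present and a summed level of 12863 FPKM in the control and 11620 FPKM in the AAPH library. Erythroid markers (6 of 9 present) summed to 3450 and 2293 FPKM, neuronal and neural crest markers (6 of 10) to 35.8 and 22.7, and fibroblast and epicardial markers (3 of 6) to 257 and 288. The fibroblast and epicardial sum was mostly DCN, at 229 FPKM in the control and 266 FPKM in the AAPH library (log2 ratio 0.22). The other markers present, TCF21 (−0.24) and WT1 (−0.62, lower at 1.5-fold), had ratios below 0. Macrophage and blood markers (2 of 4) summed to 5.70 and 6.70 FPKM. Of these CSF1R was at 4.88 and 6.15 FPKM, whereas PTPRC, with a mean below 1 FPKM, was at 0.815 and 0.547. Neither larger AAPH sum thus stands for all of its markers. Fewer cells of a type and less RNA per cell cannot be told apart in such whole-heart libraries.

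Of the 34 tested members, DNAJC12 had the log2 ratio farthest from 0. It was at 30.5 FPKM in the control and 83.8 FPKM in the AAPH library, 2.75 times as high, a log2 ratio of 1.43. DNAJC12 is a small class C protein that assists aromatic amino acid hydroxylases, among them the enzymes that begin dopamine and serotonin synthesis. Both files hold 1 transcript row for it, matched to the Ensembl transcript ENSGALT00000004372, so all of its FPKM lies in that row and no share between isoforms can be given. Among members its level ranked 14 in the control and 5 in the AAPH library. Its log2 ratio ranked 15 among all tested names, and of the 5100 tested names with a control FPKM of 10 or more none had a larger ratio. The names ranked above DNAJC12 thus all had a control FPKM below 10, which this cutoff on the control alone leaves out. Next among the 5100 was ZFAND5, at 11.8 and 25.9 FPKM (log2 ratio 1.07). No fragment number could be read from values as high as those of DNAJC12, so its counting error is not given.

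The other 33 tested members lay within 1.5-fold. Thus 1 of 34 members was higher, against 2.73% of all tested names, and 0 of 34 were lower, against 3.93%. The highest ratio after DNAJC12 was that of DNAJB5 (0.51) and the lowest that of DNAJC19 (−0.50). Both counts are near the background. Ratios below 0 made up 19 of 34 (55.9%), against 49.5% of tested names.

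The median log2 ratio of the 34 members was −0.03, beside 0.004 for all tested names, and their quartiles of −0.19 and 0.17 lay beside −0.19 and 0.18. Without DNAJC12 the median was −0.05. The summed level of all 36 members was 1234 FPKM in the control and 1216 FPKM in the AAPH library. Without DNAJC12 the other 35 names summed to 1203 and 1132 FPKM. The class A sum was 260 and 277 FPKM, the class B sum 231 and 237, and the class C sum without DNAJC12 712 and 619. The 22 tested class C members had a median log2 ratio of −0.09. Of these 22 members 14 lay below 0, beside 49.5% of tested names.

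**Figure D1:**
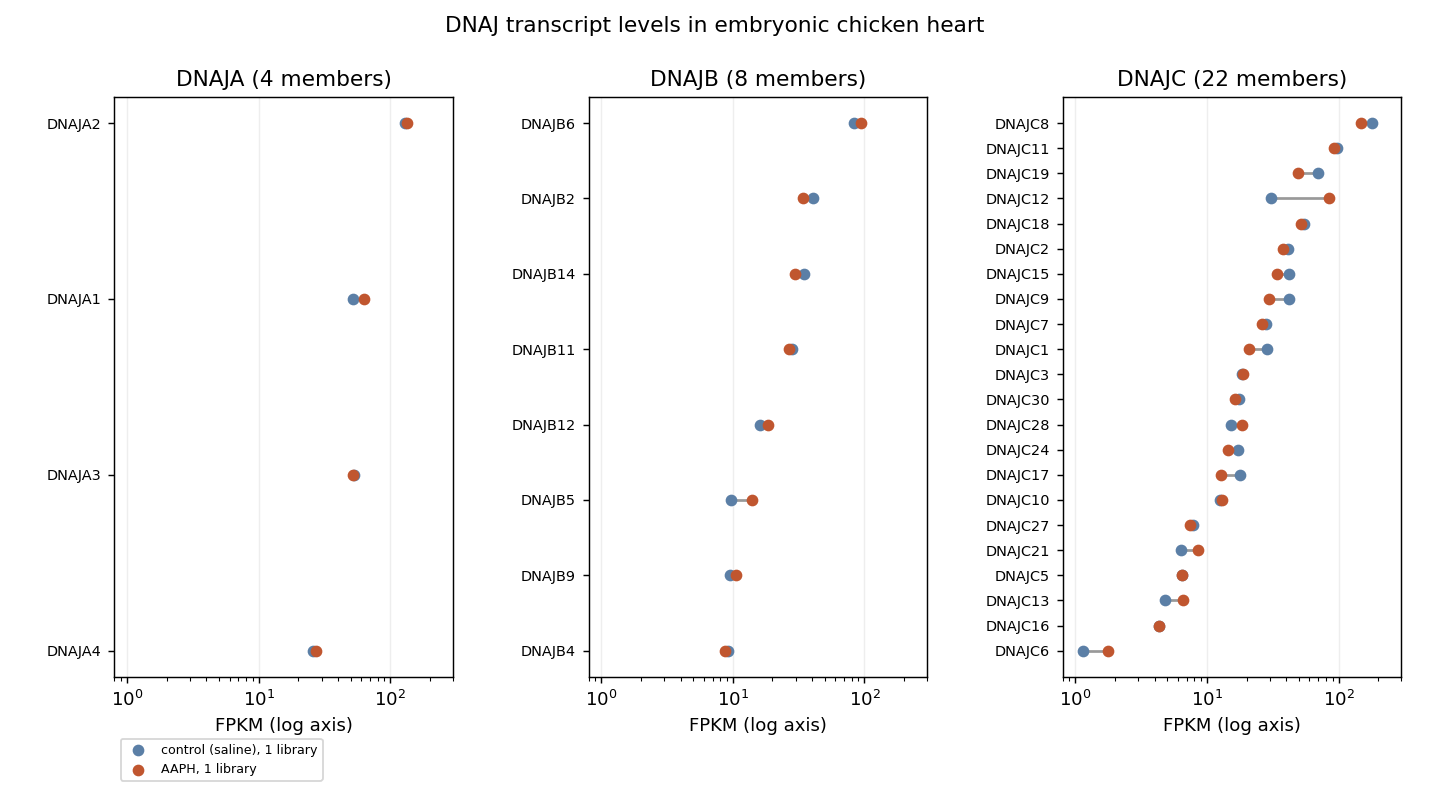
Level of each of the 34 tested DNAJ members in FPKM on a log axis, by class; blue points are the control library, orange points the AAPH library, and the grey line joins the 2 values. DNAJC12 has the widest gap, from 30.5 to 83.8 FPKM, while DNAJA2, DNAJB6 and DNAJC8 lead their classes in both libraries.

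The scale of the ratios depends on the scaling, because all FPKM values summed to 1248089 in the control but 1042407 in the AAPH library. As deposited, all tested names had a median of 0.004, and centring the libraries on their typical ratio (median of ratios) moved it by only −0.004. After that centring 20 of the 34 members lay below 0, beside 5056 of all 10106 tested names. Rescaling each library to the same total (TPM) moved the median of all tested names by 0.23, and rescaling without haemoglobin and mitochondrial-genome genes moved it by 0.21. The family moved with it, to medians of 0.20 and 0.19 beside 0.23 and 0.22 for all tested names. Ratios below 0 were thus fewer after rescaling, 6 of 34 (TPM) and 8 of 34 in place of 19. Among all 10106 tested names 2107 (TPM) and 2305 lay below 0, so the members were near the background. DNAJC19, DNAJC9, DNAJC17, DNAJC1, DNAJC15 and DNAJC8 lay below 0 under both rescalings, joined by DNAJB2 and DNAJC24 under the latter. Under both, DNAJC12 had larger ratios (1.68 and 1.67), and DNAJB5, DNAJC21 and DNAJC13 also passed 1.5-fold, so that 4 of 34 members were higher, against 8.4% and 8.53% of tested names. None was lower, against 1.6% and 1.83%. Since both rescalings moved the median of all tested names up, a change of sign under them is not a change of place among names. A ratio above 0 under them can still lie below that median (0.23 and 0.22).

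Class A holds the general cytosolic co-chaperones DNAJA1, DNAJA2 and DNAJA4, which hand unfolded proteins to HSP70, and the mitochondrial DNAJA3. DNAJA2 was the most abundant, at 130 FPKM in the control and 134 FPKM in the AAPH library (log2 ratio 0.05). DNAJA1 was at 51.8 and 62.7 FPKM (0.27), and DNAJA4 at 25.8 and 27.3 (0.08). These 3 cytosolic members all had ratios above 0, also under both rescalings. Among all 10106 tested names 5100 lay above 0 as deposited, and 7999 (TPM) and 7801 did so after rescaling. DNAJA3, whose loss in the mouse heart is known to cause dilated cardiomyopathy, was at 52.9 and 52.3 FPKM (−0.02, above 0 under both rescalings). The class had a median log2 ratio of 0.06.

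The cytosolic and nuclear members of class B spanned the range of the class. DNAJB6, which keeps proteins from aggregating and is mutated in a human muscular dystrophy, was the most abundant at 82.8 FPKM in the control and 94.2 FPKM in the AAPH library (log2 ratio 0.18). DNAJB2, which binds ubiquitin and passes clients to the proteasome, was at 40.6 and 34.3 FPKM. Its ratio was the lowest of the class among tested members (−0.24), and lay near 0 after rescaling (0.02 for TPM and −0.004). DNAJB5, which in the mouse heart is known to join the histone deacetylase HDAC4 in a complex controlled by thioredoxin, was at 9.60 and 14.0 FPKM (0.51), the highest ratio of the class. DNAJB4 was at 9.22 and 8.64 FPKM (−0.08, above 0 under both rescalings). DNAJB1, the classical heat-inducible member, is not analysed here, since no row carries its name. The 8 tested class B members had a median log2 ratio of 0.05.

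The members of the endoplasmic reticulum were close to each other in the 2 libraries, apart from DNAJC1. DNAJB9, DNAJB11, DNAJC3 and DNAJC10 work in the lumen with the HSP70 chaperone HSPA5 (BiP), whereas DNAJB12 and DNAJB14 turn their J domain to the cytosol. DNAJC1, a membrane protein of the reticulum, was at 28.5 FPKM in the control and 20.9 FPKM in the AAPH library (log2 ratio −0.43). DNAJB9, which is induced by the unfolded protein response and holds its sensor IRE1 in check, was at 9.51 and 10.6 FPKM (0.15). DNAJB11, a soluble folding factor, was at 27.9 and 26.9 FPKM (−0.05, above 0 under both rescalings). The other 8 ratios lay between −0.21 and 0.19. DNAJC3, which restrains the translation-blocking kinase PERK, was at 18.5 and 18.8 FPKM (0.03), and the disulfide reductase DNAJC10 at 12.6 and 13.1 (0.05). The membrane-bound DNAJB12, which takes part in degradation of membrane proteins, was at 16.2 and 18.5 FPKM (0.19), the highest of the 9. Its relative DNAJB14 was at 34.5 and 29.6 (−0.21, above 0 under both rescalings). DNAJC18 was at 55.0 and 51.4 FPKM (−0.10, above 0 under both rescalings) and DNAJC16 at 4.31 and 4.32. The median of the 9 was 0.001.

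Of the 6 tested mitochondrial members, 5 had ratios below 0, with a median of −0.09, and 2 of the 6 lay below 0 under both rescalings. Among all 10106 tested names 49.5% lay below 0 as deposited, and 2107 (TPM) and 2305 did so after rescaling. DNAJC19, the J protein of the TIM23 import motor, which is mutated in a human syndrome of dilated cardiomyopathy and ataxia, was at 70.0 FPKM in the control and 49.1 FPKM in the AAPH library (log2 ratio −0.50). Its close relative DNAJC15, which sits in the inner membrane and slows respiratory complex I, was at 42.0 and 34.1 FPKM (−0.29). These 2 are the mitochondrial members that stayed below 0. DNAJC11, a partner of the MICOS complex that shapes the inner membrane, was the most abundant at 97.4 and 91.7 FPKM (−0.09). Its name covers 2 loci that went apart. Row 3, at 1 locus, was at 82.4 and 71.6 FPKM (−0.20). Rows 1 and 2, at the other locus, were at 8.12 and 10.8 FPKM and at 6.90 and 9.26 FPKM (0.38 each). DNAJC30 was at 17.5 and 16.3 FPKM (−0.09), and both it and DNAJC11 lay above 0 under both rescalings. DNAJC28 was at 15.2 and 18.3 FPKM (0.25).

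The members that act on the ribosome, in the nucleus or on RNA had ratios below 0 as deposited in 4 of 5 cases, all within 1.5-fold. This compares with 49.5% of all tested names. DNAJC9, which chaperones histones H3 and H4, was at 41.7 FPKM in the control and 29.7 FPKM in the AAPH library (log2 ratio −0.47). DNAJC17, a nuclear protein of splicing, was at 17.7 and 12.9 FPKM (−0.43). DNAJC8, a spliceosome-associated protein and the most abundant member of the whole family, was at 179 and 149 FPKM (−0.26). These 3 also lay below 0 under both rescalings, where 2107 (TPM) and 2305 of all 10106 tested names did. DNAJC2, which binds the ribosome beside the tunnel exit, was at 41.4 and 38.0 FPKM (−0.12, above 0 under both rescalings). DNAJC21, which releases factors from the large ribosomal subunit, was on the other side, at 6.30 and 8.51 FPKM (0.38).

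Members of vesicles and endosomes were among the least abundant. DNAJC13, which acts in sorting at early endosomes, was at 4.82 FPKM in the control and 6.56 FPKM in the AAPH library (log2 ratio 0.38). DNAJC6 (auxilin), which strips clathrin from vesicles and is known mainly from neurons, was at 1.14 and 1.78 FPKM (0.38). With a pseudocount of 0.1 FPKM in place of 1 its ratio was 0.60, past 1.5-fold, so the call of this low gene depends on the pseudocount. DNAJC5 (cysteine string protein), a chaperone of secretory vesicles, was at 6.43 and 6.42 FPKM, and DNAJC27, which joins a J domain to a small GTPase, at 7.77 and 7.39 (−0.06); both lay above 0 under both rescalings. The cytosolic DNAJC7, which links HSP70 and HSP90, was at 28.1 and 26.2 FPKM (−0.10, above 0 under both rescalings). DNAJC24, needed for the diphthamide modification of elongation factor 2, was at 17.0 and 14.4 FPKM (−0.23, and 0.01 for TPM).

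The 2 members below a mean FPKM of 1 were DNAJB13 and DNAJC5B. DNAJB13, a protein of the radial spokes of cilia, was at 0.716 FPKM in the control and 0.125 FPKM in the AAPH library. The smallest fragment numbers that give this ratio are 6 and 1, a ratio of 0.175 whose 95% interval (Clopper-Pearson, exact binomial) runs from 0.0038 to 1.44 and covers counting error only. Multiples of 6 and 1 would give the same ratio with a narrower interval, and the files do not show which numbers were counted. Its log2 ratio of −0.61 would pass 1.5-fold without the filter. DNAJC5B, a testis relative of cysteine string protein, was at 0.031 and 0.032 FPKM, the ratio that equal fragment numbers give. With 1 fragment in each library its interval would run from 0.013 to 82.5.

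**Figure D2:**
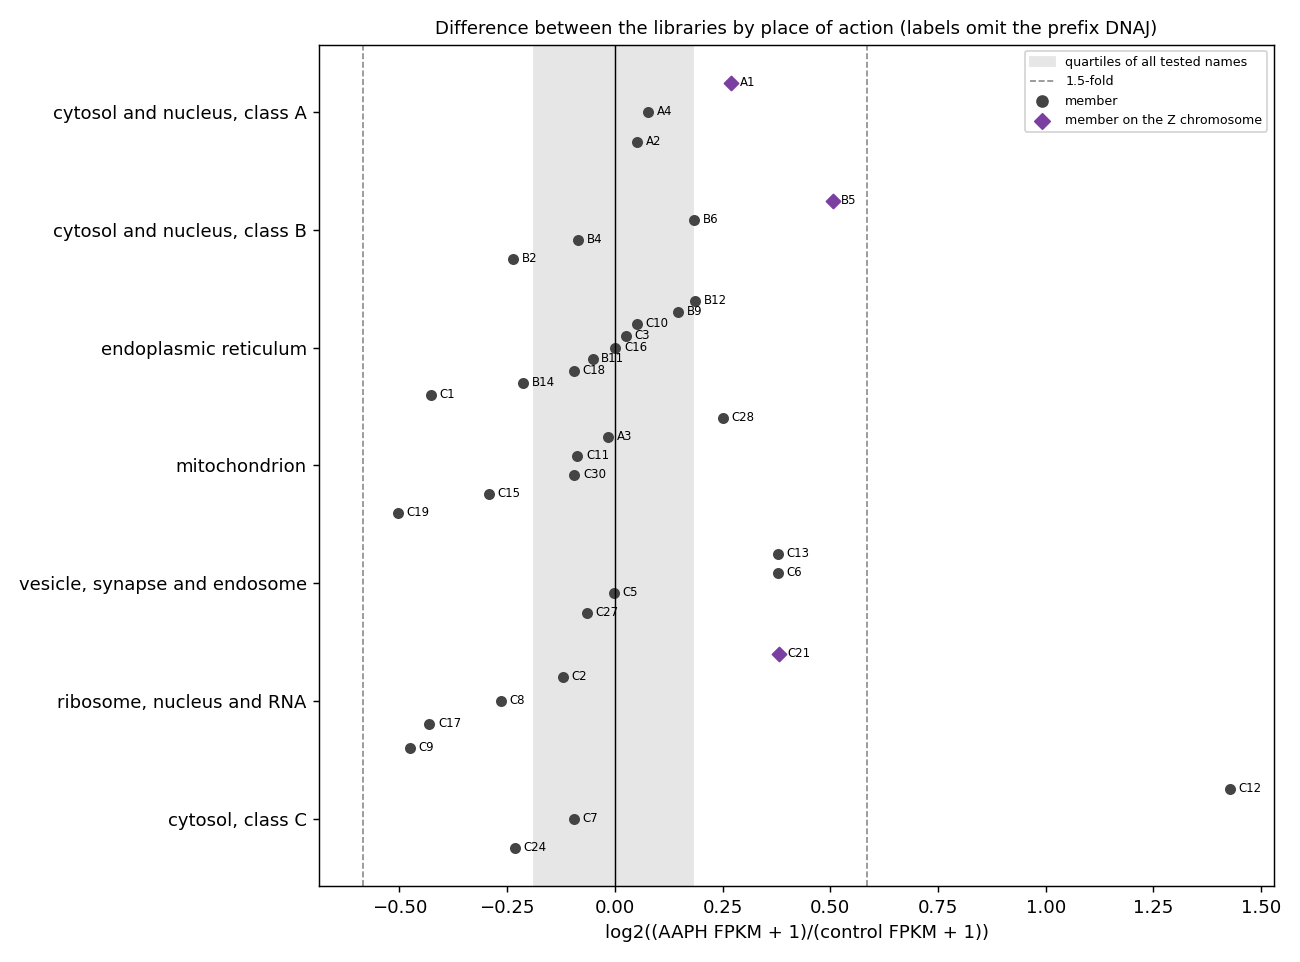
Log2 ratio of each of the 34 tested members (x axis), grouped by the place where the protein acts (rows); the grey band spans the quartiles of all tested names, the dashed lines mark 1.5-fold, and purple diamonds are members on the Z chromosome. DNAJC12 at 1.43 is the only point past a dashed line, and the 3 diamonds lie between 0.27 and 0.51.

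The 3 members on the Z chromosome were all toward the AAPH library. Males of birds carry a pair of Z chromosomes and females a Z and a W, and most Z genes are not fully balanced between the sexes. DNAJA1, DNAJB5 and DNAJC21 lie on Z in the RefSeq gene table (assembly GRCg7b), with log2 ratios of 0.27, 0.51 and 0.38. Among the 402 tested names on Z the median log2 ratio was 0.31, 84.3% lay above 0 and 15.2% were higher at 1.5-fold, while among the 9704 other tested names the median was −0.006 and 49.1% lay above 0 and 2.22% were higher. DNAJA1 and DNAJC21 lay between the quartiles of the names on Z (0.14 and 0.50), and DNAJB5 lay just above the upper one. The sex of the embryos is not given, and a difference in sex make-up between the libraries cannot be told apart from the treatment. The 31 members elsewhere had a median of −0.06. DNAJC12 lies on chromosome 6.

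Neighbours of DNAJC12 on chromosome 6 had smaller log2 ratios than DNAJC12 as deposited. So did nearly all tested names, among which DNAJC12 ranked 15, so this does not set the region apart. The neighbours were looked at after the value of DNAJC12 was seen, in the gene order of the RefSeq table and among genes with a value in the files. On one side, the deacetylase gene SIRT1 was at 10.0 FPKM in the control and 11.0 FPKM in the AAPH library (log2 ratio 0.13). On the other side, CTNNA3, an alpha-catenin of the intercalated disc of heart muscle, was at 102 and 109 FPKM (0.09). Farther out, PCDH15, LRRTM3 and IPMK had ratios of −0.17, −0.04 and −0.16, and CISD1, REEP3 and JMJD1C of 0.43, 0.44 and 0.25. PCDH15 (0.240 FPKM in the control and 0.105 FPKM in the AAPH library) and LRRTM3 (0.090 and 0.057) were below the filter. At such levels the pseudocount of 1 FPKM keeps a ratio near 0, so these do not count as level. The other neighbours lay within 1.5-fold as deposited, and rescaled ratios are not given for any neighbour.

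Of the tryptophan hydroxylases, which DNAJC12 assists, TPH1 had a ratio below 0 as deposited and under both rescalings. TPH1 was at 1.5 FPKM in the control and 0.96 FPKM in the AAPH library, and TPH2 at 0.032 and 0. No row carries the name of tyrosine hydroxylase (TH), and DBH, which follows it in noradrenaline synthesis, had a listed value of 0 in the control and 0.056 FPKM in the AAPH library. TPH2 and DBH were thus at or near 0 in both libraries, while TPH1 passed the filter. Of the 7 tested genes listed among the clients and the enzymes of tetrahydrobiopterin, the cofactor of the hydroxylases, 0 were higher, against 2.73% of all tested names, 1 was lower, against 3.93%, and 6 were neither. The lower gene was PCBD2, a cofactor dehydratase, at 51.2 and 33.5 FPKM (−0.60; −0.34 for TPM and −0.37 for the other rescaling). PTS, an enzyme of the cofactor's synthesis, was at 18.1 and 12.6 FPKM (−0.49), and PCBD1 at 25.9 and 28.0 (0.11). The median of the 7 was −0.32 as deposited, and −0.07 and −0.09 after rescaling.

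Hormone genes of glands that lie near the heart in the embryo, TG and PTH, were higher in the AAPH library, as DNAJC12 was. Thyroglobulin (TG), the precursor of thyroid hormone, was at 0.116 FPKM in the control and 4.97 FPKM in the AAPH library, and the thyroid factors TSHR and NKX2-1 reached 0.111 and 0.147 FPKM in the AAPH library, from listed values of 0. The thyroid list had 3 of 7 markers present, which summed to 0.116 and 5.23 FPKM, and SLC5A5, PAX8, FOXE1 and DUOX2 had no value under these names. Parathyroid hormone (PTH) was at 0.435 and 19.3 FPKM, and GCM2, a defining factor of the parathyroid, at 0.152 and 0.798. TSHR, NKX2-1 and GCM2 were below the filter of a mean of 1 FPKM. Values this small can rest on few fragments, and their counting error is not given. All 6 markers of the parathyroid and ultimobranchial list were present and summed to 159 and 191 FPKM, of which the granule protein CHGB held 150 and 163. Of the 4 tested genes of that list PTH was higher, CHGA was lower at 4.15 and 2.18 FPKM (log2 ratio −0.70), and CHGB and CALCA were within 1.5-fold (0.12 and 0.04). The part of these tissues in the level of DNAJC12 was not tested. The 6 neuronal and neural crest markers with a value summed to 35.8 and 22.7 FPKM, with STMN2 at 14.8 and 8.63.

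The division of a name's FPKM among its transcript rows also differed between the libraries. The 36 members have 74 rows, 15 members with 1 row and 21 with 2 to 4. The share of a name's FPKM held by a single row shifted by 20 percentage points or more, a threshold set after the values were seen, in 8 of the 21 members. This is 38.1%, beside 36.4% of all 6743 tested names with several rows, so such shifts were as common across the tables. The largest shift among the 21 members had a median of 11.9 points, beside 14.0 points for all such names. Rows of 1 locus can share sequence, and the software divides shared fragments among them, so a row is less certain than a sum. Among members only the rows of DNAJC11 come from 2 loci.

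DNAJC19 had the largest shift of the family, and its rows went in opposite directions. Its row 1 was at 30.1 FPKM in the control and 41.5 FPKM in the AAPH library, and its share was 43.0% and 84.5%. Its row 4 was at 20.6 FPKM in the control and 0.00062 FPKM in the AAPH library. Row 2 was at 17.3 and 7.62 FPKM and row 3 at 1.90 FPKM and listed at 0. The smaller AAPH sum of DNAJC19 therefore rests on rows 2 to 4, while row 1, the most abundant, had a log2 ratio of 0.45.

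DNAJC15 showed the reverse pattern, with less FPKM in its leading row and more in 2 others. Row 1 was at 40.2 FPKM in the control and 23.9 FPKM in the AAPH library (log2 ratio −0.73), a share of 95.8% and 70.1%. Row 4 was at 0.792 and 6.75 FPKM and row 3 at 0.0031 and 3.46. By its leading row alone DNAJC15 was lower at 1.5-fold, as was DNAJC17, whose row 2 was at 15.3 and 9.58 FPKM (−0.62). In DNAJA3 row 1 was at 34.1 and 42.1 FPKM and row 2 at 18.8 and 10.3, so that a nearly level sum held rows that went apart.

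**Figure D3:**
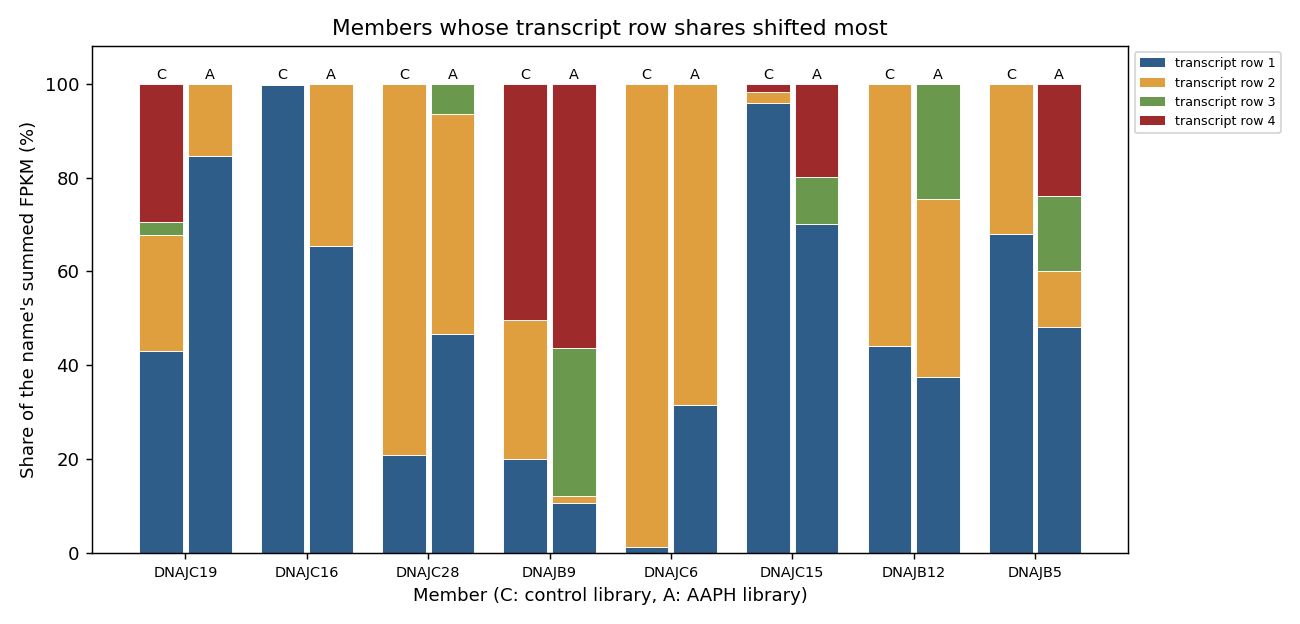
Share of the summed FPKM of a name held by each of its transcript rows (stacked bars, %), for the 8 members with the largest shifts; C is the control library, A the AAPH library, and colours are rows 1 to 4. Row 1 of DNAJC19 goes from 43.0% to 84.5%, and row 1 of DNAJC15 from 95.8% to 70.1%.

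Other members had rows with FPKM in the AAPH library that were at or near 0 in the control library. Row 4 of DNAJB5 was at 0.00016 FPKM in the control and 3.35 FPKM in the AAPH library, and its row 3 was listed at 0 and at 2.26 FPKM. Its row 1 was nearly level, at 6.52 and 6.78 FPKM (log2 ratio 0.05), so the larger AAPH sum of DNAJB5 came from rows 3 and 4. Row 3 of DNAJB9 was at 0.0001 and 3.35 FPKM, while its row 2 was at 2.81 and 0.173. Row 3 of DNAJB12 was listed at 0 and at 4.56 FPKM. Such rows, under 0.001 FPKM in the control but at 1 FPKM or more in the AAPH library, numbered 6 in the family, and 2 rows had the opposite pattern. The same counts were not made over the rows of all names, so they cannot be read as a trait of the family. In DNAJC28 the rows were at 3.18 and 8.54 FPKM (row 1) and 12.0 and 8.59 (row 2). In DNAJC16, whose sum was level, row 1 was at 4.30 and 2.82 FPKM and row 2 at 0.011 and 1.5. In DNAJC6 row 1 was at 0.015 and 0.561 FPKM and row 2 at 1.12 and 1.22, so that row 1 held most of its difference.

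The HSP70 chaperones that these proteins serve were within 1.5-fold as deposited. All 10 tested genes of the list lay within it, as did 9433 of all 10106 tested names, so this does not set the list apart. Their median log2 ratio was −0.03. HSPA2, HSPA12B, HSP70, HSPA1A and HSPA1B had no value under these names, so nothing can be said of them. HSPA8, the constitutive cytosolic HSP70, was at 282 FPKM in the control and 322 FPKM in the AAPH library (0.19). HSPA5, the HSP70 of the endoplasmic reticulum, was at 274 and 226 (−0.27), and the mitochondrial HSPA9 at 203 and 188 (−0.11, above 0 under both rescalings). HSPH1, which acts as an exchange factor for HSP70, had the highest ratio at 11.2 and 14.7 FPKM (0.36; 0.60 for TPM and 0.59 for the other rescaling, past 1.5-fold), followed by HSPA4L (0.26). HSPA14, a ribosome-associated HSP70 that works with DNAJC2, had the lowest at 13.2 and 10.4 FPKM (−0.32). The nucleotide exchange factors, which reopen HSP70 after a J protein has closed it, were listed together with other HSP70 co-chaperones, the ubiquitin ligase CHIP (STUB1) and ST13, which steadies the closed form. All 10 tested genes of this list were within 1.5-fold too, beside the same 9433 of 10106 tested names. They ran from BAG4 (−0.14) and BAG2 (−0.09) to ST13 (0.08) and BAG5 (0.29), with a median of −0.02. BAG3, a stress-induced factor of heart muscle, was at 30.6 and 30.4 FPKM.

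HSP90 and its co-chaperones included 1 lower gene, UNC45B, the myosin chaperone, at 125 FPKM in the control and 81.4 FPKM in the AAPH library (log2 ratio −0.62; −0.36 for TPM and −0.38 for the other rescaling). This is 1 of 12 tested genes, against 3.93% of all tested names. The other 11 lay within 1.5-fold, from SUGT1 (−0.19) to CHORDC1 (0.38) and the inducible cytosolic HSP90AA1, at 324 and 426 FPKM (0.39); these last 2 passed 1.5-fold under both rescalings. The median of the 12 was −0.11 as deposited and 0.14 and 0.12 after rescaling. Of J and J-like proteins that go by other names, 4 were tested and all lay within 1.5-fold, beside 9433 of all 10106 tested names. PAM16, the J-like partner of DNAJC19 in the import motor, was at 111 and 84.0 FPKM (−0.40), and the translocon component SEC63 at 34.7 and 32.9 (−0.07). GAK, a relative of auxilin on Z, was at 0.827 and 1.43 FPKM (0.41). HSCB, which serves iron-sulfur cluster assembly, was at 45.3 and 54.6 FPKM (0.26).

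In the TIM23 import machinery, to which DNAJC19 and PAM16 belong, 1 of 7 tested genes was higher, against 2.73% of all tested names, and none was lower, against 3.93%. TIMM44, which tethers the motor to the channel, was at 2.96 FPKM in the control and 4.99 FPKM in the AAPH library (log2 ratio 0.60). ROMO1 had the lowest ratio, at 37.1 and 26.9 FPKM (−0.45), before PAM16, and TIMM21 lay at −0.03 (above 0 under both rescalings). The 7 genes had a median of −0.05, and 6 of the 7 ratios lay below 0 as deposited, against 49.5% of all tested names. Under the rescalings 2 of them lay below 0, beside 2107 (TPM) and 2305 of all 10106 tested names. Of 23 tested genes of the unfolded protein response 1 was lower, against 3.93% of all tested names. It was DERL3, a component of the degradation channel of the reticulum, at 12.4 and 7.46 FPKM (−0.67; −0.43 for TPM and −0.46 for the other rescaling), and none was higher as deposited. The next lowest ratio was that of EDEM2 (−0.36) and the highest were those of DERL2 (0.31) and CREB3L2 (0.36; 0.59 under both rescalings, past 1.5-fold). The response factors ATF4, at 472 and 450 FPKM (−0.07), and XBP1, at 56.4 and 55.7 (−0.02), had small differences. The median of the list was −0.02. Its ATF6B, DDIT3, TRIB3, CREB3L4, SYVN1, CALR and PPP1R15A had no value under these names. Of the heat shock factors, which drive the inducible chaperone genes, only HSF2 was a tested gene, at 23.8 and 21.7 FPKM (−0.12), and HSF5 was at 0.055 and 0.115. HSF1, HSF3 and HSF4 had no value under these names, so their levels are not known here.

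**Figure D4:**
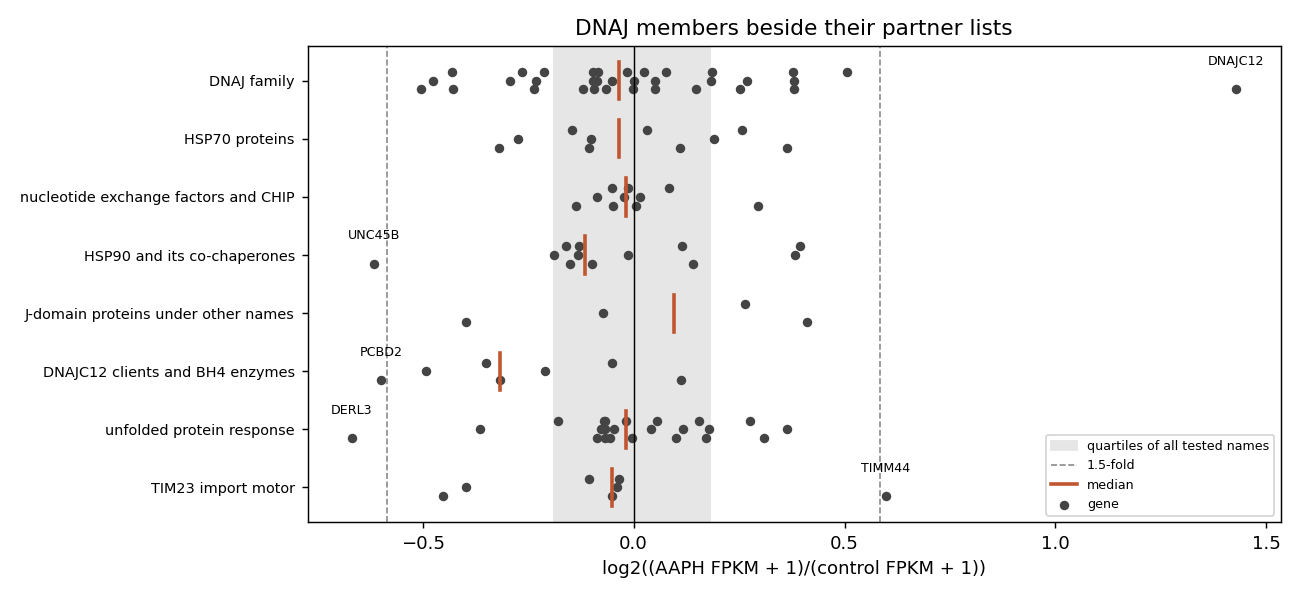
Log2 ratio of each tested gene (points) in the DNAJ family and in 7 lists of its partners (rows), with the median as an orange line, the quartiles of all tested names as a grey band and 1.5-fold as dashed lines; named points lie past 1.5-fold. DNAJC12 is alone at 1.43, while UNC45B, PCBD2 and DERL3 are on the lower side and TIMM44 on the higher side.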

How the data were processed

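Values are FPKM as the authors deposited them, per the file headers, with 1 value for each assembled transcript in each library. The submitters' processing notes name bcl2fastq, TopHat2 (2.1.1), Cufflinks (2.2.1) and Cuffdiff. Build and annotation: not given in the sources used here. Groups follow the labels' chemical entry. Rows were summed by gene name. The 1968 rows with no name hold 18.2% (control) and 20.6% (AAPH) of all FPKM and count only in library totals. The pseudocount was 1 FPKM and the filter a mean of 1 FPKM. No test was made with 1 library per group. Row shares, in percent, were computed from the deposited values.

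Members, lists and thresholds were chosen with earlier results of these data known. Some listed genes are not reported here and are left out of the list counts and medians. The rule for named genes took the DNAJC12 row, members past 1.5-fold, the highest levels and extreme ratios of each class, and the extremes of each place of action and partner list. Other genes were named for their roles or after their values were seen.

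Absolute depth is unknown. Of 906 names with 1 row and a control FPKM of 0.02 to 0.3, 89.1% had a ratio that was 1.05 times a ratio of integers up to 10 (relative tolerance 0.0002), which gives the relative value of a fragment in the libraries. Chromosomes came from the RefSeq table (GRCg7b), matched by symbol for all 36 members. Software was Python 3.11.15 with numpy 2.4.6 and pandas 2.3.3, scipy 1.17.1 for intervals and matplotlib 3.10.9 for figures. The code for calls was checked on data simulated from the control library with counting error only. That check held no variation between embryos, so it does not show how reliable the calls between these libraries are.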

Additional observations from a re-analysis of the deposited data

How the results depend on the processing

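Of the settings tried, DNAJC12 stayed higher at 1.5-fold in each that kept it, with log2 ratios of 1.42 (median of ratios) to 1.68 (TPM) and 1.67 (rescaled without haemoglobin and mitochondrial-genome genes). The settings of filter, highest row and Z chromosome could not change its ratio. DNAJC12 has 1 row, lies on chromosome 6 and has a mean of 57.2 FPKM. Higher members numbered 4 under each rescaling, 2 with a pseudocount of 0.1 FPKM (DNAJC6 added) and 0 without DNAJC12, a setting chosen after seeing the data. Lower members numbered 1 with no filter (DNAJB13) and 2 by the highest row alone (DNAJC15 and DNAJC17). For the pseudocount, filter and highest-row settings the counts over all names are not given. These member counts therefore cannot be read as a trait of the family. As deposited, the medians were −0.03 for the family, 0.06 for class A, 0.05 for class B and −0.09 for class C, beside 0.004 for all tested names. Rescaled to TPM, they were 0.20, 0.32, 0.29 and 0.16, beside 0.23 for all tested names. Under the other rescaling they were 0.19, 0.30, 0.27 and 0.14, beside 0.22. By the highest row alone, class A had a median of 0.19 and class B of −0.056. The class B median was −0.05 with no filter and without members on Z. Of the 33 other tested members, 13 changed sign under TPM, 11 under the other rescaling, 6 by the highest row and 1 under the median of ratios. These shifts follow from the change of the library totals and of the rows counted. How many of all tested names changed sign is not given, so the sign changes are not a trait of the family either. No paired analysis was possible because each group has 1 library, and for the same reason no library could be left out. FPKM gives no absolute depth, which limits the low members most.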
